A study of Mus musculus with 15 samples.

Results

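The 9 genes described here act where a ribosome stops before the end of its message: Pelo, Hbs1l, Abce1, Zfp598, Ascc3, Nemf, Ltn1, Gtpbp1 and Gtpbp2. They were taken by name, and each matched 1 row of the 55487 mouse genes in the deposited tables. In mutant erythroid progenitors carrying an Rpl5 mutation, Gtpbp2 was lower than in wildtype in every comparison with wildtype: its fitted level fell by 34.6% in group 1 of the mice, fell by 31.1% in the mutants of group 2 and fell by 22.9% in their low-yield mutants. Leaving out a library ended its call in 4 of 6 fits of group 1, in 2 of 9 of the low-yield mutant and in 0 of 9 of the group 2 mutant by edgeR. Ltn1 was higher by 18.8% in the low-yield mutant and by 10.8% over both groups of mice, calls that were lost in 6 of 9 and 8 of 12 fits that left out a library. The other 7 genes, among them the Pelo, Hbs1l and Abce1 set that splits stalled ribosomes, passed edgeR's test in none of the 6 comparisons. With other tools, Ascc3 and Gtpbp1 passed in the low-yield mutant (limma's voom) and Gtpbp1 over both groups (DESeq2).

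The sequenced RNA came from erythroid progenitors of E12.5 fetal livers, from mice of strain 129S6/SvEvTac. Group 1 of the mice gave 3 wildtype and 3 Rpl5 mutant libraries, with polyA RNA as the molecule. Group 2 gave 3 wildtype, 3 mutant and 3 low-yield mutant libraries, with total RNA as the molecule. The sheet deposited with group 2 spells the genotype of both mutant sets Rpl5plusSkax23Jus, while the sheet of group 1 says only M. The meaning of low-yield, and how the progenitors were isolated, are not given in the sources used here. The labels number replicates but do not say that they came from separate embryos, so the p-values measure the spread between these libraries, which may be technical.

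A ribosome can stall on a damaged or cut message, on a codon whose tRNA is scarce, or behind another halted ribosome. Cells answer in steps: the collision is sensed and the small subunit tagged with ubiquitin, the ribosome is split, and the unfinished protein that stays on the large subunit is marked for destruction. In blood cells the splitting pair Pelo and Hbs1l has been tied to the upkeep of translation while red cells and platelets mature. Rpl5 itself codes for a component of the large subunit, and loss of a copy causes Diamond Blackfan anaemia in people.

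Library totals ran from 24954324 to 58513669 counts, and the 9 genes held between 818 and 31187 counts per library. At 818 counts, counting error alone gives a coefficient of variation of 3.50%. Levels are given as CPM, the counts of a gene relative to the TMM-scaled library total. Rpl5 was lower in every mutant library than in every wildtype library of its group, and its fitted level fell by 20.1% in group 1 mutants, fell by 27.3% in group 2 mutants and fell by 26.1% in low-yield mutants. The 8 erythroid marker genes summed to 2444 to 2683 CPM in group 1 wildtype and 1808 to 1932 CPM in group 1 mutants. In group 2 they summed to 2909 to 3726 CPM in wildtype, 2309 to 2563 CPM in mutants and 2182 to 2566 CPM in low-yield mutants. The 7 granulocyte markers summed to 16.9 to 34.6 CPM in group 2 wildtype, 134 to 221 CPM in mutants and 165 to 370 CPM in low-yield mutants. In group 1 they summed to 74.4 to 576 CPM in wildtype and 224 to 1134 CPM in mutants. The sums of the 5 megakaryocyte markers (15.7 to 45.9 CPM in group 2) and of the 5 endothelial markers (0.809 to 9.59 CPM in group 2) were also higher in both mutant sets of group 2 without overlap, and in group 1 each of these sums overlapped. These lists did not move as a whole. Itga2b had means of 9.22, 15.7 and 28.4 CPM in group 2 wildtype, mutant and low-yield mutant, and Pecam1 0.924, 3.26 and 5.62 CPM. By contrast Gp9 (2.65, 2.34 and 1.72 CPM) and Cdh5 (0.277, 0.0680 and 0.180 CPM) had lower means in both mutant sets. The 7 hepatocyte markers were lower in group 1 mutants without overlap, at 32.9 to 61.6 CPM in wildtype and 5.85 to 21.9 CPM in mutants, and in group 2 they overlapped (8.84 to 75.1 CPM). The 4 lymphocyte markers, 2 of them at 0 in all group 1 libraries, summed to 0.737 to 0.851 CPM in group 1 wildtype and 0 to 0.181 CPM in group 1 mutants, and overlapped between wildtype and mutant in group 2. The 7 macrophage markers summed to at most 10.4 CPM and overlapped in group 1 and in each comparison of group 2. The part of these other cells in the results below was not tested, and in such bulk libraries fewer cells of a type cannot be told from less RNA per cell.

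A gene is said to have passed where edgeR's quasi-likelihood test gave an adjusted p under 0.05 (Benjamini-Hochberg over all genes tested). All 9 genes passed the filter on low counts in every comparison. In group 1, 1 of the 9 passed, Gtpbp2, which was lower, as were 6.78% of the 14048 genes tested, while 5.79% were higher and 12.6% passed in either direction. In group 2, 1 of the 9 passed in the mutant, again Gtpbp2 as lower, against 2.95% of 15024 genes lower and 3.32% higher. In the low-yield mutant 2 of the 9 passed, Ltn1 as higher and Gtpbp2 as lower, against 6.68% of all genes higher and 5.86% lower. When 12 libraries were fitted together with a term for mouse group, the same 2 genes passed, against 9.8% of 15954 genes higher and 9.8% lower, 19.6% in all. With 9 genes, 1 or 2 that pass lies near these background shares. The median log2 fold change of the 9 was -0.06 in group 1 and 0.01 over all genes tested. It was -0.01 in the group 2 mutant, -0.07 in the low-yield mutant and -0.04 over both groups, where the median of all genes was -0.01, -0.00352 and -7.01e-04. Mutant and low-yield mutant of group 2 share their wildtype libraries, and the comparison over both groups reuses libraries of the single groups, so these results are not independent of each other.

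**Figure D1:**
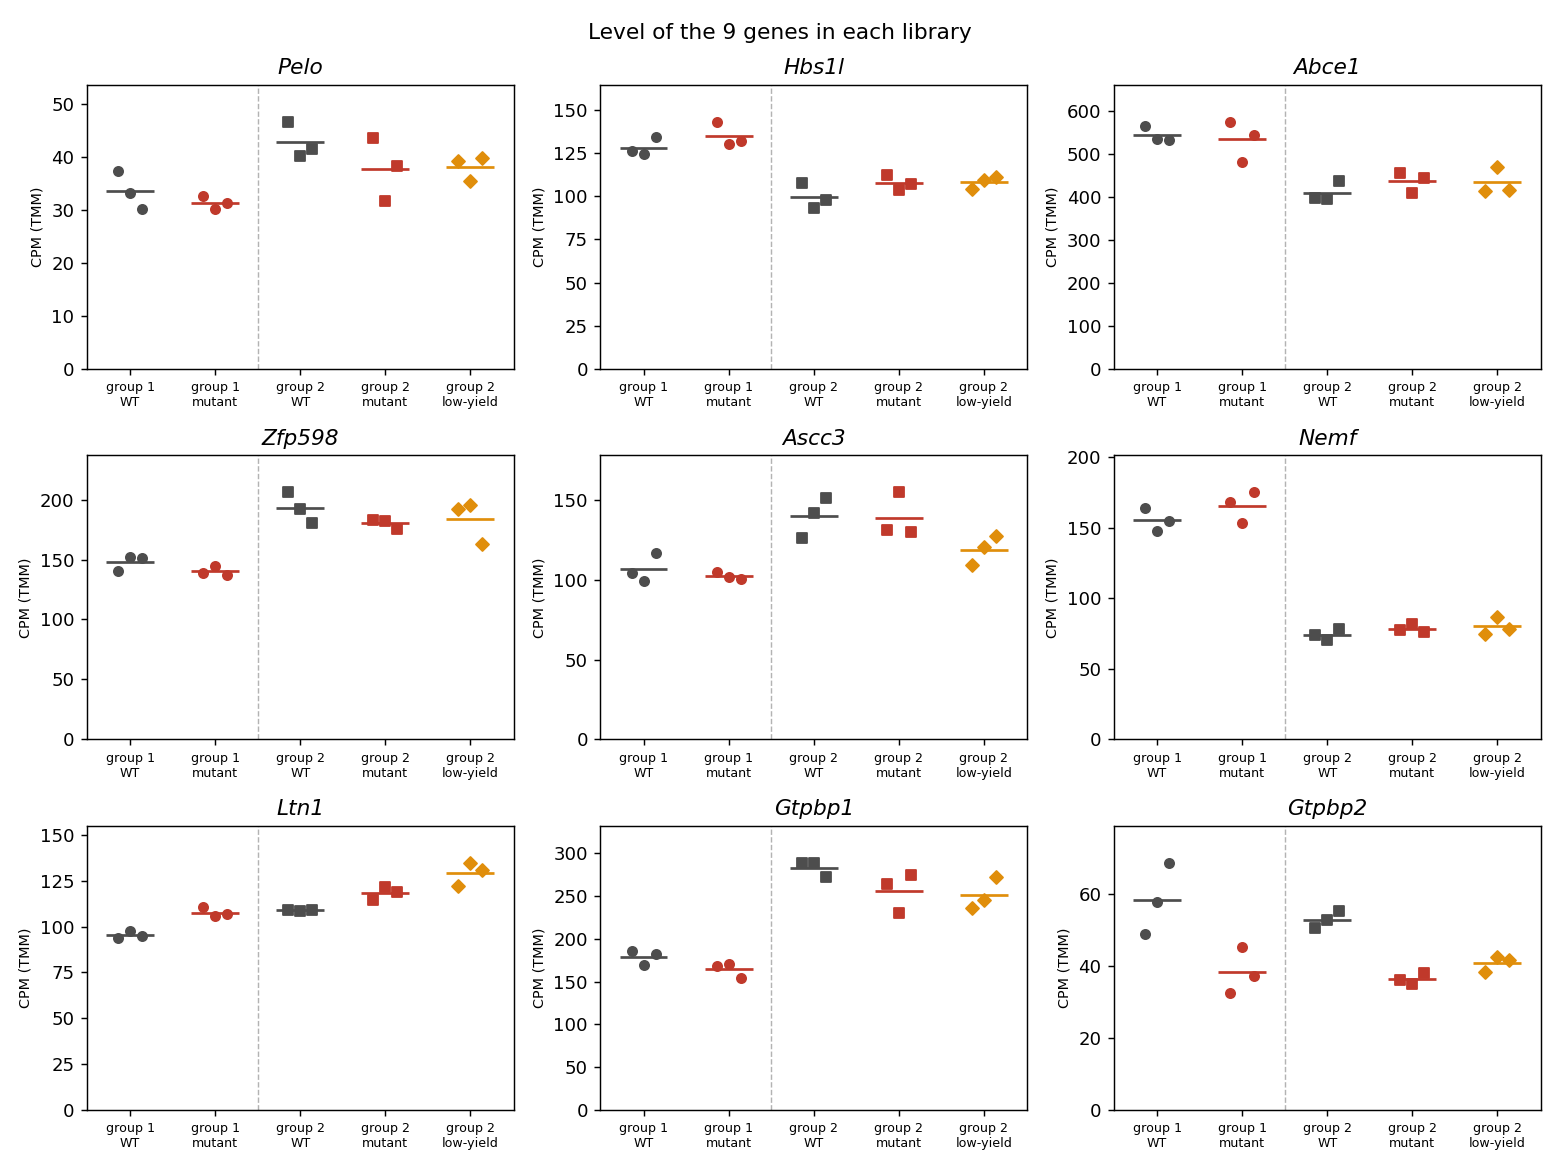
Level of each of the 9 genes in every library, in CPM on an axis from 0; points are single libraries, horizontal lines are means of 3, and the dashed line parts the 2 groups of mice. Gtpbp2 lay between 48.9 and 68.7 CPM in the 6 wildtype libraries and between 32.4 and 45.3 CPM in the 9 mutant ones.

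Pelo encodes the factor that enters a stalled ribosome with an empty decoding site. Pelo lies on chromosome 13 of GRCm38 (115088355 to 115090186, reverse strand). Its level was 37.3, 33.1 and 30.2 CPM in group 1 wildtype and 32.7, 30.2 and 31.2 CPM in group 1 mutants. Group 2 had 46.6, 40.1 and 41.4 CPM in wildtype, 43.6, 31.6 and 38.2 CPM in mutants and 39.1, 35.4 and 39.9 CPM in low-yield mutants. Mutant and wildtype libraries overlapped in group 1 and for the group 2 mutant, while every low-yield library lay below every group 2 wildtype library. Of the 9 genes, 4 had no overlap in that comparison (Pelo, Gtpbp1 and Gtpbp2 lower, Ltn1 higher), beside 29.9% of all genes tested. The log2 fold change was -0.10 ± 0.09 (SE) in group 1, -0.17 ± 0.12 in the group 2 mutant, -0.16 ± 0.12 in the low-yield mutant and -0.13 ± 0.08 over both groups. None of these passed, with adjusted p between 0.284 and 0.555 in edgeR's test. Pelo sits inside an intron of Itga1, which held at most 0.734 CPM, and shares 468 exonic bases with the antisense gene Gm10734, at most 1.67 CPM. It also shares 739 exonic bases with Gm49395 on the same strand, which held 10 counts over all libraries.

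Hbs1l encodes the GTPase that brings Pelo to the ribosome, in the manner in which a release factor is escorted at a stop codon. Hbs1l lies on chromosome 10 (21295979 to 21368898, forward strand). It stood at 126, 124 and 134 CPM in group 1 wildtype and at 143, 130.4 and 132 CPM in group 1 mutants. The libraries of group 2 held 107, 93.2 and 97.7 CPM in wildtype, 112, 104 and 107 CPM in mutants and 104, 109 and 111 CPM in low-yield mutants. The mean was higher in each mutant set, and the libraries overlapped each time. The log2 fold change was 0.08 ± 0.06 (SE), 0.12 ± 0.08 and 0.12 ± 0.08 in the 3 single comparisons and 0.10 ± 0.05 over both groups, with adjusted p between 0.236 and 0.484. The pseudogene Gm9923 is identical to Hbs1l over 418 bases and held 5311 counts in all against 73722 for Hbs1l. Adding the counts of near-identical copies changed no call of the 9 genes.

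Abce1 encodes the ATPase that drives the subunits apart after rescue and after ordinary termination. Abce1 lies on chromosome 8 (79683462 to 79711740, reverse strand) and had the highest CPM of the 9. It measured 566, 536 and 534 CPM in group 1 wildtype and 576, 482 and 546 CPM in group 1 mutants. Group 2 libraries had 398, 396 and 438 CPM in wildtype, 458, 409.7 and 444 CPM in mutants and 415, 471 and 417 CPM in low-yield mutants. The groups overlapped in each comparison. The log2 fold change was -0.03 ± 0.07 (SE) in group 1, 0.09 ± 0.08 in the group 2 mutant, 0.08 ± 0.08 in the low-yield mutant and 0.03 ± 0.06 over both groups. Across Pelo, Hbs1l and Abce1 and the 4 comparisons with wildtype, the 12 single-gene 95% confidence intervals ran from -0.42 to 0.29 on the log2 scale. A fall to 0.747 of wildtype, or a rise to 1.23 of it, was therefore the widest change these intervals still held.

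**Figure D2:**
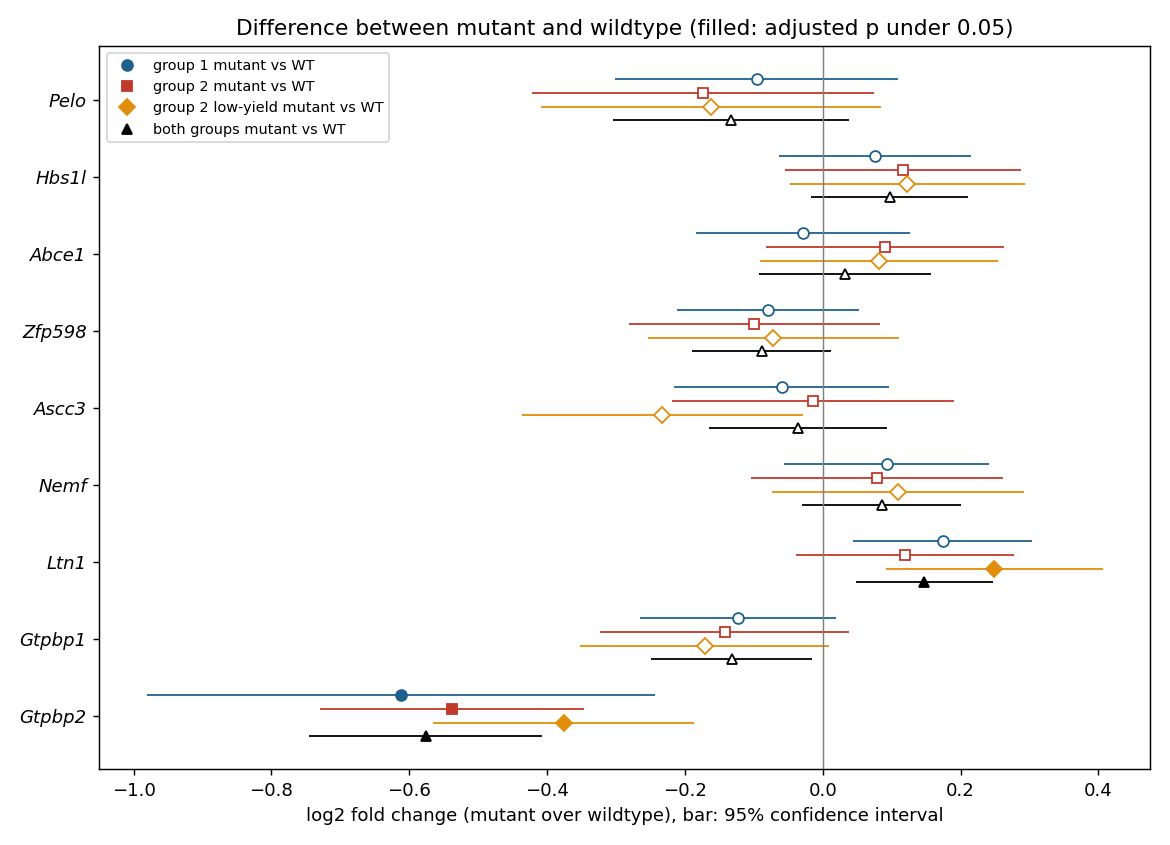
Log2 fold change of each gene, mutant over wildtype, in group 1, in group 2, in the low-yield mutant of group 2 and over both groups; bars are 95% confidence intervals of single genes and filled symbols mark an adjusted p under 0.05. The 4 filled symbols of Gtpbp2 lie between -0.61 and -0.38, and the 2 of Ltn1 at 0.25 and 0.15.

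Zfp598 encodes the ubiquitin ligase that recognises collided ribosomes and marks proteins of their small subunits. Zfp598 lies on chromosome 17 (24669687 to 24682016, forward strand). It measured 141, 152 and 151 CPM in group 1 wildtype and 139, 145 and 137 CPM in group 1 mutants. Group 2 gave 206, 192 and 181 CPM in wildtype, 183, 182 and 175 CPM in mutants and 193, 196 and 163 CPM in low-yield mutants. The libraries overlapped in all of these comparisons. Its log2 fold change was between -0.10 and -0.07 in the 4 comparisons with wildtype, and the lowest adjusted p was 0.220, over both groups.

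Ascc3 encodes the helicase of the complex that pulls the leading ribosome of a collision apart once Zfp598 has marked it. Ascc3 lies on chromosome 10 (50592669 to 50851485, forward strand). Group 1 gave 104, 99.2 and 117 CPM in wildtype and 105, 102 and 100.5 CPM in mutants. Group 2 gave 126, 142 and 151 CPM in wildtype, 131, 155 and 129.9 CPM in mutants and 109, 120.4 and 128 CPM in low-yield mutants. The low-yield libraries were below all 3 group 2 mutant libraries and overlapped the wildtype ones. Between low-yield and other mutants 3 of the 9 genes had no overlap (Ascc3 lower, Ltn1 and Gtpbp2 higher), beside 8.21% of all genes tested. Against wildtype the low-yield mutant had a log2 fold change of -0.23 ± 0.10 (SE) with an adjusted p of 0.131, while limma's voom with quality weights gave -0.30 with an adjusted p of 0.0143. In the other 3 comparisons with wildtype its log2 fold change was between -0.06 and -0.01.

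Nemf encodes the protein that binds a large subunit still holding an unfinished chain, extends that chain and recruits Ltn1. Nemf lies on chromosome 12 (69310522 to 69357165, reverse strand). It measured 164, 147 and 155 CPM in group 1 wildtype and 168, 154 and 175 CPM in group 1 mutants. Its group 2 levels were 73.9, 70.3 and 78.2 CPM in wildtype, 77.4, 82.1 and 75.8 CPM in mutants and 74.6, 87.1 and 78.5 CPM in low-yield mutants. Libraries overlapped throughout, and the log2 fold change was between 0.08 and 0.11 with a lowest adjusted p of 0.311. Nemf shares 166 exonic bases with Klhdc2 on the opposite strand, which held 112 to 154 CPM. Whether counting used strand is not given in the sources used here, so reads in that stretch cannot be assigned with certainty.

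Ltn1 encodes Listerin, the ubiquitin ligase that marks the unfinished chain on the large subunit. Ltn1 lies on chromosome 16 (87376651 to 87432612, reverse strand). In group 1 it measured 93.9, 97.6 and 94.7 CPM in wildtype (95.4 ± 1.93, SD, n = 3) and 110.5, 106 and 107 CPM in mutants (108 ± 2.55). In group 2 it measured 109.1, 108.6 and 109.2 CPM in wildtype (109 ± 0.331), 114, 122 and 119 CPM in mutants (118 ± 3.65) and 122, 135 and 131 CPM in low-yield mutants (129 ± 6.32). Every mutant library lay above every wildtype library of its group in all 3 single comparisons. The low-yield libraries lay above the other mutant libraries by a slim gap (122.5 against 121.6 CPM at the nearest). That difference did not pass in edgeR (log2 fold change 0.13, 95% confidence interval -0.03 to 0.29). Ltn1 and Gtpbp2 were the 2 of the 9 genes without overlap in group 1, beside 31.6% of all genes, and in the group 2 mutant, beside 23.2% of all genes.

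The test did not reach the threshold for Ltn1 in group 1 (log2 fold change 0.17 ± 0.06, SE, adjusted p 0.0785) or in the group 2 mutant (0.12 ± 0.07, adjusted p 0.407). It did, by edgeR, in the low-yield mutant, at 0.25 ± 0.07 with an adjusted p of 0.0384. The joint fit of both mouse groups also passed, at 0.15 ± 0.05 with an adjusted p of 0.0343. The genotype effect of Ltn1 was not shown to differ between the groups of mice (interaction -0.04, 95% confidence interval -0.25 to 0.17, adjusted p 1.00). The call in the low-yield mutant was lost without wildtype replicate 2 (adjusted p 0.115) or 3 (0.0914), mutant replicate 3 (0.0654), or low-yield replicate 1 (0.0690), 2 (0.159) or 3 (0.0859). The call over both groups was lost without any of the group 1 wildtype replicates 1 (0.0831), 2 (0.0796) or 3 (0.0834), group 1 mutant replicates 1 (0.0767) or 3 (0.0559), group 2 wildtype replicate 2 (0.0568), or group 2 mutant replicates 2 (0.0606) or 3 (0.0611). Without a filter on low counts both calls were lost (0.0753 for the low-yield mutant and 0.0910 for the joint fit), and with only the 6 compared libraries the low-yield call was lost (0.0588). In group 1, by contrast, Ltn1 passed among genes with a mean of at least 5 CPM (0.0406) and with DESeq2 (0.0361). In all of these settings the log2 fold change was positive. Where a call was lost, it was between 0.22 and 0.29 in the low-yield mutant and between 0.13 and 0.15 over both groups.

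Gtpbp1 and Gtpbp2 encode related GTPases that resemble elongation factors. Gtpbp2 works with Pelo, and its loss in mice that lack a particular arginine tRNA leads to ribosome stalling and neurodegeneration. Gtpbp1 lies on chromosome 15 (79690845 to 79721479, forward strand). It measured 185, 169.6 and 182 CPM in group 1 wildtype and 168, 171 and 154 CPM in group 1 mutants. The group 2 levels were 289, 288 and 272 CPM in wildtype, 265, 230.4 and 274 CPM in mutants and 236, 246 and 271.8 CPM in low-yield mutants. Of the mutant sets only the low-yield one lay wholly below wildtype, and its highest library all but reached the lowest wildtype one. Its log2 fold change was -0.12 ± 0.06 (SE) in group 1, -0.14 ± 0.08 in the group 2 mutant, -0.17 ± 0.08 in the low-yield mutant and -0.13 ± 0.06 over both groups. The lowest adjusted p was 0.108, over both groups. DESeq2 put the latter at an adjusted p of 0.0444, and voom put the low-yield mutant at 0.0424.

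Gtpbp2 lies on chromosome 17 (46161032 to 46169370, forward strand) and was the gene that fell. In group 1 it measured 48.9, 57.8 and 68.7 CPM in wildtype (58.5 ± 9.90, SD, n = 3) and 32.4, 45.3 and 37.2 CPM in mutants (38.3 ± 6.55). In group 2 it measured 50.6, 52.9 and 55.2 CPM in wildtype (52.9 ± 2.3), 36.1, 35.1 and 38.1 CPM in mutants (36.4 ± 1.55) and 38.3, 42.4 and 41.6 CPM in low-yield mutants (40.8 ± 2.18). No mutant library reached the lowest wildtype library of its group. Group 1 was the more scattered, with 48.9 CPM in its lowest wildtype library and 45.3 CPM in its highest mutant one.

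By edgeR, the log2 fold change of Gtpbp2 was -0.61 ± 0.16 (SE) in group 1 with an adjusted p of 0.0457. It was -0.54 ± 0.09 in the group 2 mutant (adjusted p 0.00293), -0.38 ± 0.09 in the low-yield mutant (0.0121) and -0.58 ± 0.08 in the joint fit (4.63e-05). Low-yield libraries lay above the other mutant libraries of group 2, but this difference did not pass (0.16, 95% confidence interval -0.03 to 0.36, adjusted p 1.00). In that comparison 0 genes passed in edgeR (0.0% of all), 480 had an unadjusted p under 0.05, DESeq2 called 6 and voom called 0. The effect in group 2 minus that in group 1 was 0.09 (95% confidence interval -0.26 to 0.44, adjusted p 1.00), where 3 genes, or 0.0188% of all, passed.

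The group 1 call of Gtpbp2 was lost without wildtype replicate 2 (adjusted p 0.125) or 3 (0.0849) or mutant replicate 1 (0.0722) or 3 (0.159), and without a filter on low counts (0.0655) or with a mean of at least 5 CPM (0.0516). In these fits the log2 fold change was between -0.62 and -0.48. With the replicate number as a block, a pairing that was not settled, the adjusted p of Gtpbp2 in group 1 was 1.27e-04 by edgeR. There the log2 fold change was -0.61, while the share of all genes that passed rose from 12.6% to 20.4%. The low-yield call was lost without wildtype replicate 3 (log2 fold change -0.34, adjusted p 0.0508) or low-yield replicate 1 (-0.33, 0.0875). For the group 2 mutant and for the joint fit, Gtpbp2 passed under all alternatives run, with adjusted p of at most 0.0185 and 4.39e-04 when a library was left out. The erythroid marker sum was lower in the same libraries in which Gtpbp2 was lower, and 6 of its 8 genes passed as lower in group 1, 2 in the group 2 mutant and 3 in the low-yield mutant. The list did not move as a whole: Kit, the receptor for stem cell factor on early progenitors, passed as higher in all 3, with a mean of 161 CPM in wildtype and 198 CPM in mutants of group 1, and of 179, 247 and 257 CPM in wildtype, mutant and low-yield mutant of group 2. Gata1, the master erythroid transcription factor, passed in none of them. The part of these markers in the fall of Gtpbp2 was not tested.

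For the 2 genes that passed in any comparison, the 250 bases before the transcription start follow, 5′ to 3′ on the gene's strand, from RefSeq on GRCm38.p6, to set the start of Gtpbp2 beside that of Ltn1. Capitals mark matches, on either strand, to any of 6 motifs: AGATAA of GATA factors, the E-box CACGTG, the CCAAT box, the cAMP response element TGACGTCA, the composite element TGATGNAA of C/EBP and ATF factors, and the TATA box TATAAA.
Gtpbp2, chr17:46160782-46161031, forward strand: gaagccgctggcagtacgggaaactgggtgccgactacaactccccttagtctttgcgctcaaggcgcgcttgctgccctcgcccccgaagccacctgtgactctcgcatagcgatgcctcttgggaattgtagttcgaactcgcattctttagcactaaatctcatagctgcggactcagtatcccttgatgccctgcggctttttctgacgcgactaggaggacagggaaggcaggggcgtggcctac
Ltn1, chr16:87432607-87432856, reverse strand: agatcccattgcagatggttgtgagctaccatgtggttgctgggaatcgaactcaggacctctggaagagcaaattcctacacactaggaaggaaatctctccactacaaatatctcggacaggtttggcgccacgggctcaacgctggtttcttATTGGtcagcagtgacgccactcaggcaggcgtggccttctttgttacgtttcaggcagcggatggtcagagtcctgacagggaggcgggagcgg
The Gtpbp2 window held none of the 6 motifs, which says only that these letters are not in it. The Ltn1 window held 1 match, a CCAAT box read on the opposite strand 95 to 91 bases before the start, and its last 6 bases are exonic in GENCODE. The CCAAT letters were in 4 of the 9 windows (Abce1, Nemf, Ltn1 and Gtpbp1) and in 34.2% of 27025 promoter windows of the same length. Pelo held an AGATAA match, as did 10.2% of all windows, and Abce1 a TGACGTCA match 10 to 3 bases before its start, as did 1.6%. In GENCODE all 250 bases of the Pelo and Gtpbp1 windows are exonic, with exons of these genes themselves among them. The Abce1 window held 149 exonic bases, of Anapc10. No match overlapped another, and CACGTG (5.9%), TGATGNAA (3.5%) and TATAAA (12.9%) were in 0 of the 9. The Gtpbp2 window was 57.6% G or C and the Ltn1 window 54.0%, beside a median of 52.0% over all windows.

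The genes whose levels moved most like Gtpbp2 were sought over all 15 libraries as the smallest root mean square difference of log2 CPM, each gene centred on the wildtype mean of its group of mice. Of 13369 genes compared, the nearest 5 were Abtb1 (0.135), Mfsd2b (0.137), Sppl2b (0.140), Slc30a10 (0.142) and Ccnd3 (0.144). Mfsd2b is the sphingosine phosphate exporter of red cells, Slc30a10 a manganese exporter, Sppl2b an intramembrane protease and Ccnd3 a D-type cyclin used by erythroid cells. Since Gtpbp2 was lower in mutants, genes chosen this way are lower too: the log2 fold change in group 1 was -0.56 for Abtb1, -0.48 for Mfsd2b, -0.53 for Sppl2b, -0.62 for Slc30a10 and -0.48 for Ccnd3. The choice used these libraries, so this is a description with no test.

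Ratios between partners within a library do not depend on library size. The log2 ratio of Gtpbp1 to Gtpbp2 was 1.92, 1.55 and 1.40 in group 1 wildtype and 2.38, 1.91 and 2.05 in group 1 mutants, which overlapped by 1 library on each side. The ratio in group 2 was 2.51, 2.45 and 2.3 in wildtype, 2.87, 2.72 and 2.85 in mutants and 2.62, 2.53 and 2.71 in low-yield mutants. All mutant libraries of group 2 lay above wildtype, and the low-yield ones lay between the wildtype and the other mutant libraries. The log2 ratio of Pelo to Hbs1l was -1.21, -1.22 and -1.24 in group 2 wildtype, -1.37, -1.72 and -1.49 in mutants and -1.41, -1.63 and -1.48 in low-yield mutants. Every mutant library of group 2 was below every wildtype library in this ratio. Of the 20 pairings of 5 ratios with 4 comparisons, 6 had no overlap, and ratios were not tested, nor compared with those of other genes. In group 1 the same ratio was -1.76, -1.91 and -2.15 in wildtype and -2.13, -2.11 and -2.08 in mutants, and the groups overlapped. Nemf to Ltn1 was lower without overlap only in the low-yield mutant, with a difference of -0.14 on the log2 scale (mean -0.70 against -0.56 in wildtype), and Pelo to Abce1 and Hbs1l to Abce1 overlapped in all comparisons.

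**Figure D3:**
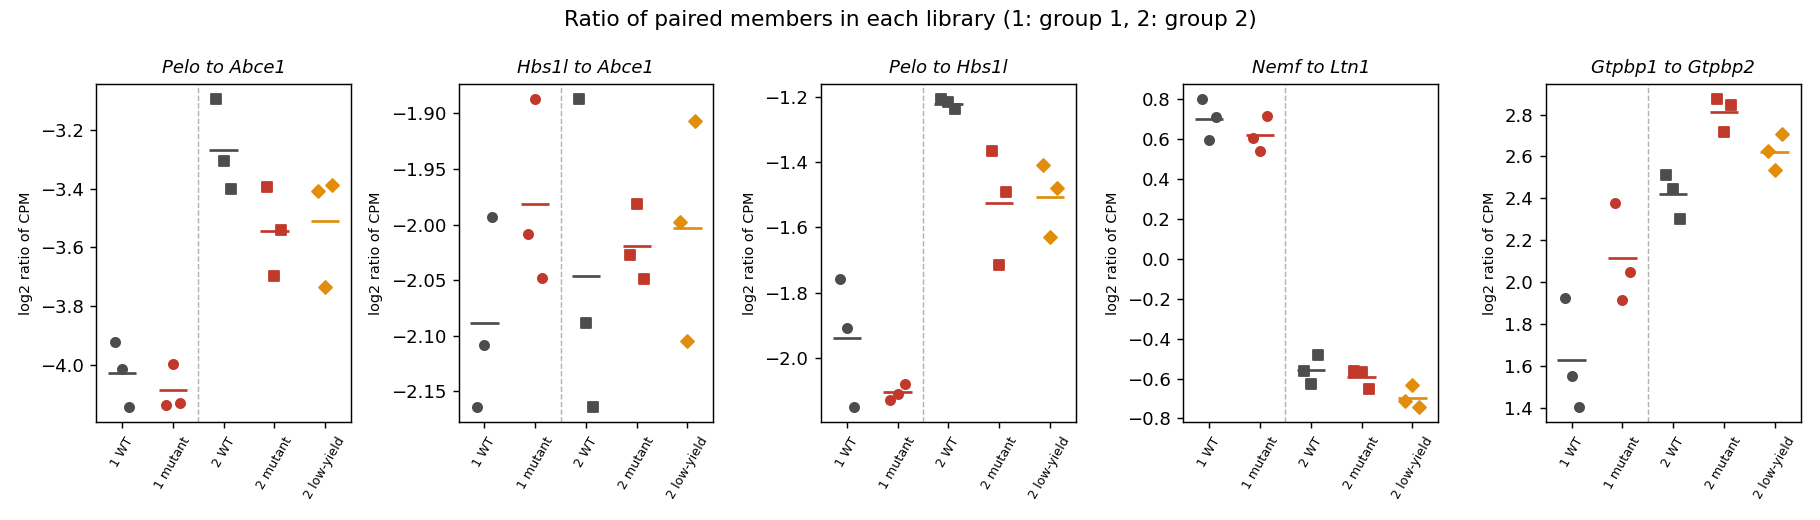
Log2 ratio of CPM of 5 pairs of partners in each library; points are libraries, lines are means of 3, and the dashed line parts the groups of mice. In group 2 the Gtpbp1 to Gtpbp2 ratio is above wildtype (at most 2.51) in all 6 mutant libraries (at least 2.53), and the Pelo to Hbs1l ratio is below it.

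To compare genes with each other, levels were divided by the length of merged exons in kb. In group 1 wildtype the order was Abce1 (90.8 ± 2.96 CPM per kb, SD, n = 3), Gtpbp1 (44.7 ± 2.07), Zfp598 (38.0 ± 1.62), Hbs1l (21.2 ± 0.873), Pelo (21.0 ± 2.23), Nemf (14.7 ± 0.772), Ltn1 (12.2 ± 0.247), Gtpbp2 (11.0 ± 1.87) and Ascc3 (6.40 ± 0.552). Hbs1l and Pelo did not differ beyond their spread, nor did Ltn1 and Gtpbp2. In group 1 mutants the order was the same, and there Gtpbp2 (7.22 ± 1.23) overlapped Ascc3 (6.14 ± 0.131) instead of Ltn1 (13.7 ± 0.325).

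In group 2 wildtype Gtpbp1 (70.7 ± 2.38 CPM per kb) and Abce1 (68.4 ± 3.91) led and overlapped. They were followed by Zfp598 (49.6 ± 3.27), Pelo (26.7 ± 2.13), Hbs1l (16.4 ± 1.20), Ltn1 (13.9 ± 0.0423), Gtpbp2 (9.97 ± 0.433), Ascc3 (8.38 ± 0.754) and Nemf (7.03 ± 0.374), none of which overlapped the next. In the group 2 mutant Gtpbp2 (6.86 ± 0.293) was the lowest of the 9, while in the low-yield mutant Gtpbp2 (7.69 ± 0.411), Nemf (7.59 ± 0.603) and Ascc3 (7.14 ± 0.557) came last, with neighbours that overlapped. Dividing by the longest annotated transcript instead moved 5 to 7 of the 9 genes to another place, depending on the group, with Abce1 first in all 5. Nemf was at 155 CPM in group 1 wildtype and 74.2 CPM in group 2 wildtype, and Gtpbp1 at 179 and 283 CPM. The groups of mice differ in RNA kind and table as well, and these differences cannot be told apart.

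**Figure D4:**
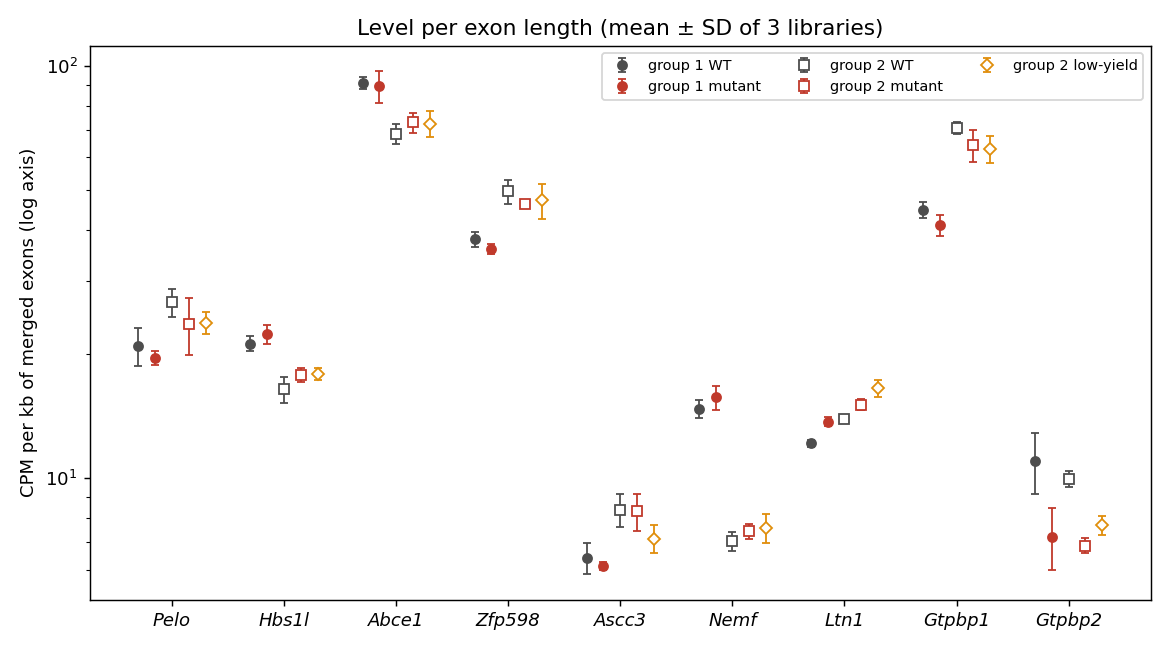
Level per kb of merged exons of each gene in the 5 sets of libraries, on a log axis; symbols are means and bars the SD of 3 libraries. Abce1 and Gtpbp1 are highest in group 2 wildtype (68.4 and 70.7 CPM per kb), and Gtpbp2 falls from 9.97 to 6.86 between group 2 wildtype and mutant.

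A wider list of 48 other genes of stalled translation, all of them tested, was read in the same fits. The counts of higher and lower genes that follow are of genes that passed. In group 1, 2 were higher and 1 lower (4.17% and 2.08% of the list, beside 5.79% and 6.78% of all genes). In the group 2 mutant 1 was higher (2.08%, beside 3.32%) and 0 lower by edgeR (beside 2.95%). In the low-yield mutant 5 were higher and 2 lower (10.4% and 4.17%, beside 6.68% and 5.86%). Over both groups 9 were higher and 4 lower (18.8% and 8.33%, beside 9.8% each), with a median log2 fold change of 0.05. With DESeq2 the latter became 10 higher and 8 lower (20.8% and 16.7%, beside 10.6% and 11.5% of all genes), and with voom 17 in either direction (35.4%, beside 25.1%). With the replicate block the 3 of group 1 became 9 (18.8%, beside 20.4% of all genes). The counts also moved with single libraries, as did those of all genes. The 3 of group 1 became 9 without mutant replicate 2 (18.8%, beside 12%). The 1 of the group 2 mutant became 6 without wildtype replicate 1 (beside 8.49% of all genes), 4 without mutant replicate 2 (8.33%, beside 5.11%), and 0 without wildtype replicate 2 or 3, mutant replicate 1 or 3, or low-yield replicate 1 or 2 (beside 2.74% to 5.15%). The 7 of the low-yield mutant became 2 without wildtype replicate 2 (4.17%, beside 6.92%) and 1 without wildtype replicate 3 (2.08%, beside 7.45%) or low-yield replicate 1 or 2 (2.08%, beside 5.79% in both). The 13 over both groups became 8 (16.7%) without group 1 wildtype replicate 2 (beside 15.4%) or group 2 mutant replicate 3 (beside 15.8%). By class, over both groups, 2 of the 6 termination and recycling genes passed as higher. Of the 17 genes of collision sensing and small-subunit ubiquitination 2 passed as higher and 3 as lower. Of the 9 genes of nascent chain quality control 1 passed as higher. Of the 16 genes of mRNA decay at stalled ribosomes 4 passed as higher and 1 as lower.

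Among the termination and recycling genes, Gspt2, a second copy of the release factor GTPase, rose by 0.84 ± 0.19 on the log2 scale (SE, edgeR adjusted p 0.00292) over both groups. Its level was low, from 1.13 to 1.99 CPM in group 2 wildtype and from 2.36 to 3.87 CPM in the group 2 mutant. Eif2d, which helps to clear tRNA from small subunits, rose by 0.30 ± 0.06 (adjusted p 9.12e-04). It measured 74.9, 69.8 and 67.8 CPM in group 1 wildtype and 92.3, 92.5 and 87.8 CPM in group 1 mutants, with no overlap.

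In collision sensing, Gigyf1, a partner of the cap-binding repressor at collided ribosomes, fell by 0.30 ± 0.06 over both groups (adjusted p 0.00197). Group 1 gave a log2 fold change of -0.43 (adjusted p 0.00218), while the group 2 mutant (-0.17, 0.297) and the low-yield mutant (-0.13, 0.381) did not pass. The effect in group 2 minus that in group 1 was 0.28 (unadjusted p 0.0221, adjusted p 1.00, edgeR), so a difference between the groups was not shown. Rnf10, the ligase that marks small subunits arrested at initiation or in elongation, fell by 0.23 ± 0.05 (0.00392). Otud3, a deubiquitinase of small-subunit proteins, fell by 0.40 ± 0.12 (0.0270), at 4.70 to 9.92 CPM. Its log2 fold change was -0.24 (adjusted p 0.355) in group 1, -0.62 (0.0602) in the group 2 mutant and -0.61 (0.0371) in the low-yield mutant, and the groups of mice were not shown to differ (-0.37, adjusted p 1.00). In nascent chain quality control Ufd1, a cofactor of the unfolding ATPase Vcp, rose by 0.26 ± 0.06 (0.00695).

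In mRNA decay the exosome subunits Exosc9 (0.33 ± 0.07, adjusted p 0.00307) and Exosc2 (0.24 ± 0.07, 0.0247), the exosome nuclease Dis3 (0.23 ± 0.06, 0.0160) and the Ski complex subunit Ttc37 (0.25 ± 0.07, 0.0132) rose over both groups by edgeR. The 3 genes that also passed, named after their values were seen, were Map3k20 (0.20, adjusted p 0.0288) and Rnf14 (0.19, 0.0302), which were higher, and Skiv2l (-0.16, 0.0492). Ttc37 and Skiv2l belong to the same complex and had opposite signs. Of the 10 genes named by smallest adjusted p, Eif2d, Gigyf1 and Exosc9 also passed in group 1 alone and Gspt2 in the group 2 mutant. Gspt2, Exosc9, Rnf10, Ufd1, Ttc37, Dis3 and Otud3 passed in the low-yield mutant, and Exosc2 in no single comparison.

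**Figure D5:**
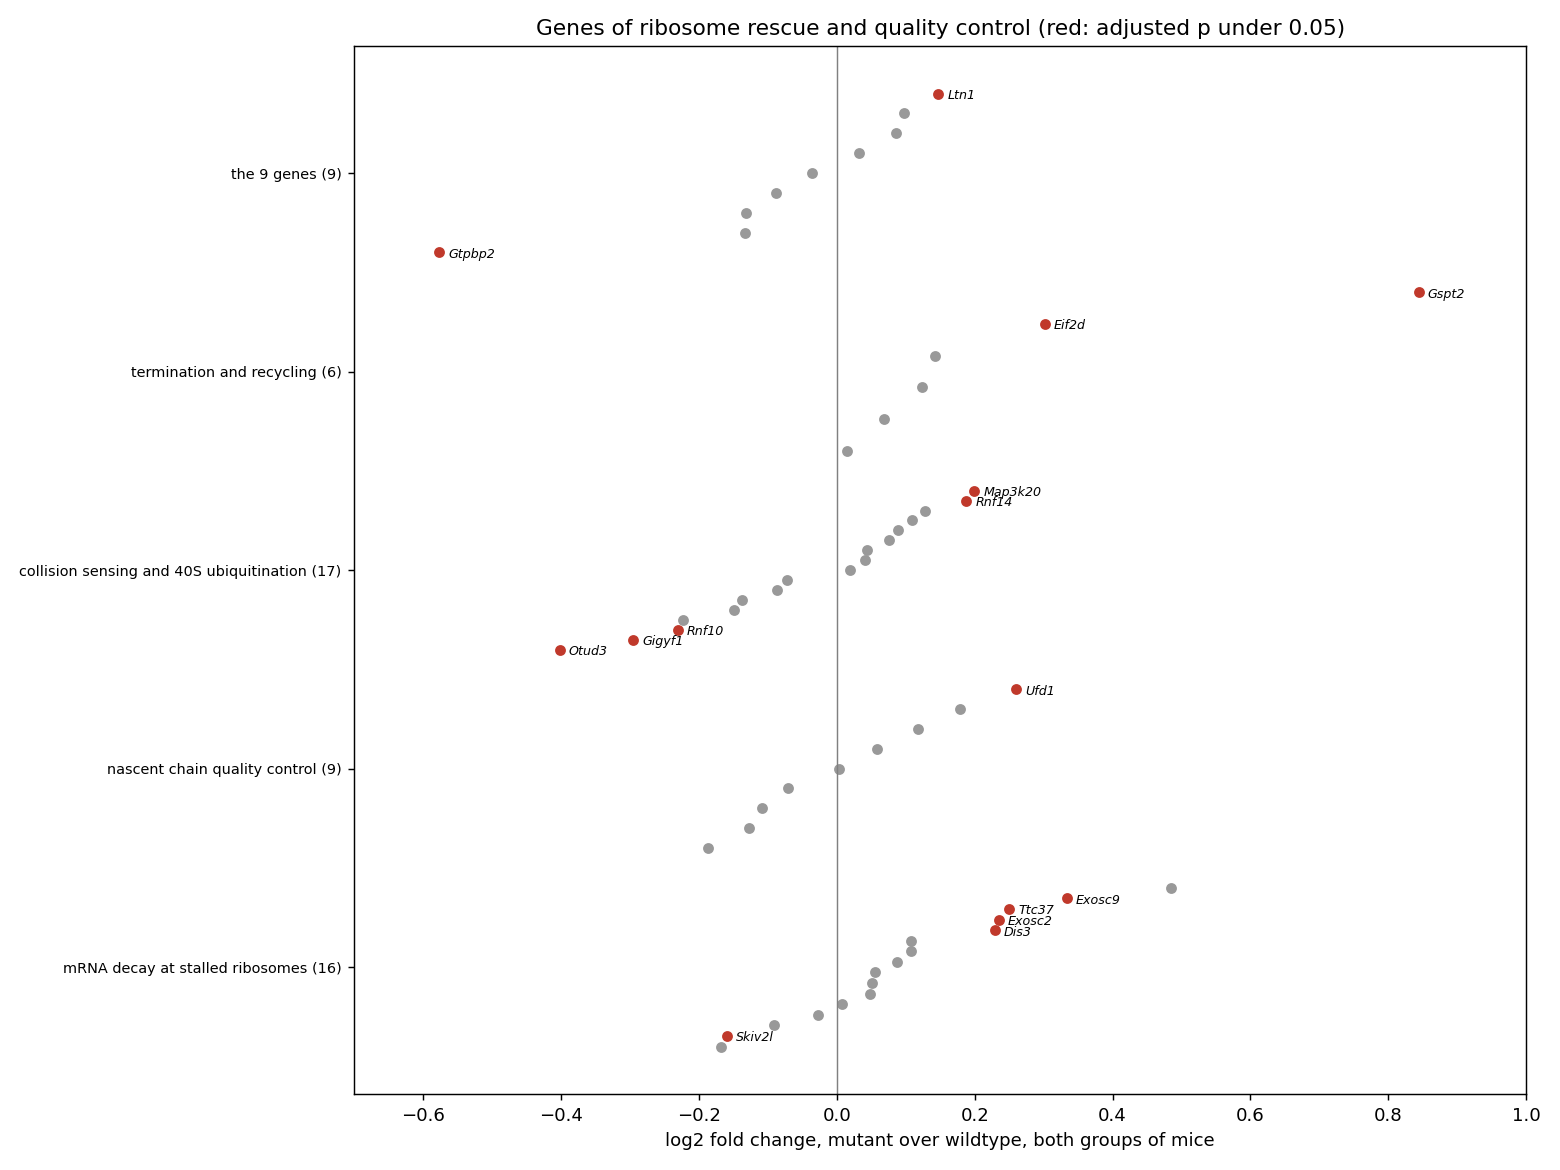
Log2 fold change over both groups of mice, mutant over wildtype, of the 9 genes and of the 48 genes of the wider list by class, with the number of genes in brackets; red points have an adjusted p under 0.05 and are named. Gtpbp2 at -0.58 is the lowest point plotted, and Gspt2 at 0.84 the highest.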

How the data were processed

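The authors deposited expected counts per gene, one table per group of mice. Per the submitters' processing notes, the tools were cutadapt 2.3, FastQC 0.11.8, STAR 2.7.8a, RSEM 1.3.3 and MultiQC 1.7 with build GRCm38. Strand handling and the annotation used in counting are not given in the sources used here. The expected counts were whole already, so rounding changed nothing. Of the 55487 gene rows, 55227 (99.5%) were in GENCODE M21 (GRCm38), which gave coordinates and lengths. Reporter rows held 5 counts in all and were left out. No 2 replicates agreed within sampling noise (chi-square per degree of freedom 18.5 to 69.6 over 15 pairs).

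The count test was that of edgeR 4.0.16 under R 4.3.3 (scaling by TMM, filterByExpr, robust quasi-likelihood F test with legacy off, two-sided, Benjamini-Hochberg over all genes tested, threshold 0.05). Group 1 (6 libraries) and group 2 (9 libraries) were fitted apart, and 12 libraries entered the fit over both groups and its interaction. Confidence intervals are for single genes, unadjusted. The spread between replicates (edgeR's BCV) came to 22.4% in group 1 and 19.9% for group 2. DESeq2 1.42.0, limma 3.58.1 (voom), other scalings and filters, a replicate block, summed near-identical copies (blastn 2.17.0) and leaving out each library were alternatives, and edgeR's legacy mode and the counts of the wider list under each alternative were added after seeing the data. The fits were also run on simulated counts, in which only genes with high counts were changed. The simulated spread between replicates was set below that of these libraries, so the fits were not checked at the noise of these data. Deviations of same-numbered mutant and wildtype libraries correlated at 0.559, 0.241 and 0.225 in group 1 and at 0.315, 0.224 and 0.0156 in group 2. In both groups replicates 1 and 2 matched their own number best and replicate 3 did not. Whether the numbers pair the libraries was therefore not settled in either group. The main fits held no replicate block. Profiles used log2 of CPM plus 0.5.

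The 9 genes, the wider list and the marker lists were chosen with earlier results of these data known. Of the wider list the 10 with the smallest adjusted p over both groups were to be named.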

Additional observations from a re-analysis of the deposited data

How the results depend on the processing

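No member changed direction where it passed in either setting. Of 972 results of single genes under an alternative, 56 changed sign without passing in either setting, all with a main log2 fold change of at most 0.10 in size. The number of the 9 genes that passed became 0 in group 1 without a low-count filter and 2 with DESeq2, which added Ltn1. With a mean of at least 5 CPM it stayed at 1, but Ltn1 passed in place of Gtpbp2. For the low-yield mutant against wildtype it became 1 without the filter, 4 with voom and 1 with only the 6 compared libraries, and over both groups 1 without the filter and 3 with DESeq2, which added Gtpbp1. The number of all genes that passed became 2863 in group 1 with the replicate block. For the group 2 mutant it became 1452 with DESeq2 and 2000 with voom, for the low-yield mutant against wildtype 3399 with voom, and for low-yield against other mutants 6 with DESeq2. For the interaction it became 13 with DESeq2 and 5 with the block.

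Leaving out a library, the number of the 9 genes that passed ranged from 0 to 1 in group 1, from 0 to 2 for the low-yield mutant and from 1 to 2 over both groups. The number of all genes ranged from 753 to 1729 in group 1, where it was 1051, 836 and 1168 without wildtype replicate 1, 2 and 3 and 753 without mutant replicate 3. It ranged from 425 to 1323 for the group 2 mutant (425 and 480 without wildtype replicates 2 and 3, 439 and 433 without mutant replicates 1 and 3). It ranged from 900 to 2395 for the low-yield mutant against wildtype (1074 and 1153 without wildtype replicates 2 and 3, 902 and 900 without low-yield replicates 1 and 2), and from 0 to 22 for low-yield against other mutants (22 without low-yield replicate 3). The cause of these shifts was not tested. In group 2, where a pairing by replicate number was not settled either, the block gave 1309 and 2331 calls against wildtype and changed no call of the 9 genes. Over both groups it gave 3889.

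Of the 48 genes of the wider list, of which 1 is 2.08%, the number that passed in group 1 became 6 with a mean of at least 5 CPM (beside 20.6% of all genes), 7 with DESeq2 (16.4%), 6 with voom (15.3%) and 9 with the replicate block (20.4%), and ranged from 2 to 9 when a library was left out. For the group 2 mutant it became 2 with a mean of at least 5 CPM (beside 9.29%), 5 with DESeq2 (9.66%), 9 with voom (13.3%), 2 with the replicate block (8.71%), and 0 in legacy mode (6.02%) or with only the 6 compared libraries (5.37%), and ranged from 0 to 6. For the low-yield mutant against wildtype it became 11 with voom (beside 22.6%) and ranged from 1 to 10. Over both groups it became 18 with DESeq2 (beside 22.1%), 17 with voom (25.1%), 14 with the replicate block (24.4%) and 11 without the filter (12%), and ranged from 8 to 13 when a library was left out. These alternatives for the list were added after seeing the data.

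The genes held at least 818 counts per library, where counting error alone gives a coefficient of variation of 3.50%, and each set had 3 libraries.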
